A study of Mus musculus with 6 samples.

Results

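The granzymes and perforin, the proteins with which cytotoxic lymphocytes kill, were examined in microarray profiles of mouse natural killer (NK) cells. The 10 genes were those whose symbol in the platform annotation was Gzma, Gzmb, Gzmc, Gzmd, Gzme, Gzmf, Gzmg, Gzmk, Gzmm or Prf1. Each had 1 probe set of its own, so that 10 of 19938 measured genes were described. By the GRCm38.p6 gene table, Gzma and Gzmk lie on chromosome 13, Gzmm and Prf1 on chromosome 10, and the other 6 granzymes on chromosome 14, which also carries the microRNA genes deleted in the knockout.

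Granzymes are serine proteases that are stored in cytotoxic granules together with perforin. When an NK cell meets a target cell the granules are released, perforin forms pores in the target's membrane, and the granzymes enter and cleave proteins there, so that the target dies. Mouse NK cells at rest are known to hold abundant Gzmb and Prf1 transcript with little of the proteins, while granzyme A protein is present without activation.

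The cells came from spleens of C57Bl/6 mice aged 8 to 12 weeks and were sorted straight after harvest as YFP+, CD27+, NK1.1+ and CD3-. CD27 marks the less mature part of the NK population. Cells of the genotype 15a/16-1FKO, referred to as the knockout, were hybridised to 3 arrays and those of the control genotype, Ctrl, to another 3, and both genotypes passed the YFP+ gate. The promoter that drives the deletion and the reporter is not stated in the labels used here. The question is what these cells express without the microRNA genes Mir15a and Mir16-1. The title of the study names c-Myb (Myb) as the target of their microRNAs. The 3 arrays per genotype are described as technical replicates, which the sex-linked transcripts given below go against. The labels do not state whether they stand for separate animals or pools, so a p-value speaks of the spread between these arrays.

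The mature forms of the deleted microRNA genes are shown because these genes define the knockout. Both share the seed in capitals (bases 2 to 8). Whether mature forms with this seed were still made from other genes was not examined. By RefSeq (GRCm38.p6) the mature forms of the deleted genes lie at chr14:61632075-61632096 and chr14:61631936-61631957, both on the minus strand.
mmu-miR-15a-5p: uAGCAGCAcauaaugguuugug
mmu-miR-16-5p: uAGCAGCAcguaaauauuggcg

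The probe set of Mir15a read 4.37, 3.53 and 3.43 on the knockout arrays and 7.14, 6.02 and 6.69 on the Ctrl arrays (log2 expression), with no overlap (difference -2.84, SE 0.31, limma adjusted p = 0.0296). Mir16-1, at means of 2.76 and 3.39, was not above background in either genotype, so its difference of -0.63 (SE 0.19, limma adjusted p = 0.999) does not check the label. Sex-linked transcripts differed between arrays within both genotypes. Xist, transcribed only in females, was at 3.89 on Ctrl replicate 2 and between 7.56 and 9.65 on the other 5 arrays, and the Y-linked Eif2s3y was at 2.33 on Ctrl replicate 1 and between 6.18 and 7.95 elsewhere. On every knockout array and on Ctrl replicate 3 both Xist and Eif2s3y were above background, so that these arrays held RNA of both sexes. Of these 2 transcripts, only Xist was above background on Ctrl replicate 1, and only Eif2s3y on Ctrl replicate 2. Among the knockout arrays the Y-linked Uty was at 5.82, 3.77 and 3.20 and Kdm5d at 7.01, 6.04 and 5.04. All 10 markers of NK cells that were checked lay above background, among them Ncr1 (difference 0.05, SE 0.15). Background was taken as a log2 level of 4.13, under which 95% of 1027 olfactory receptor genes lay. Bulk arrays cannot tell fewer cells of a type from less RNA per cell.

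Of the 10 genes, 5 lay above background: Gzma, Gzmb, Gzmk, Gzmm and Prf1. The remaining 5, Gzmc, Gzmd, Gzme, Gzmf and Gzmg, did not. No granzyme and not Prf1 passed the threshold, an adjusted p of 0.05 over all 19938 genes by limma, which 0.0201% of genes (4) passed. All 4 lie on chromosome 14, and 3 were higher and 1, Mir15a, lower in the knockout. Gzmb and Gzmc were lower in the knockout without overlap between the arrays of the genotypes, and Gzmk was higher without overlap. Arrays that did not overlap were found in 3 of 10 members and in 8.33% of all genes. By direction, 2 of 10 were lower against 4.65% of genes, and 1 of 10 was higher against 3.68%. The same 3 genes had an unadjusted limma p under 0.05, a level reached by 3.47% of genes. The median log2 difference (knockout minus Ctrl) was -0.10 over the 10 genes and -0.01 over all genes.

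**Figure D1:**
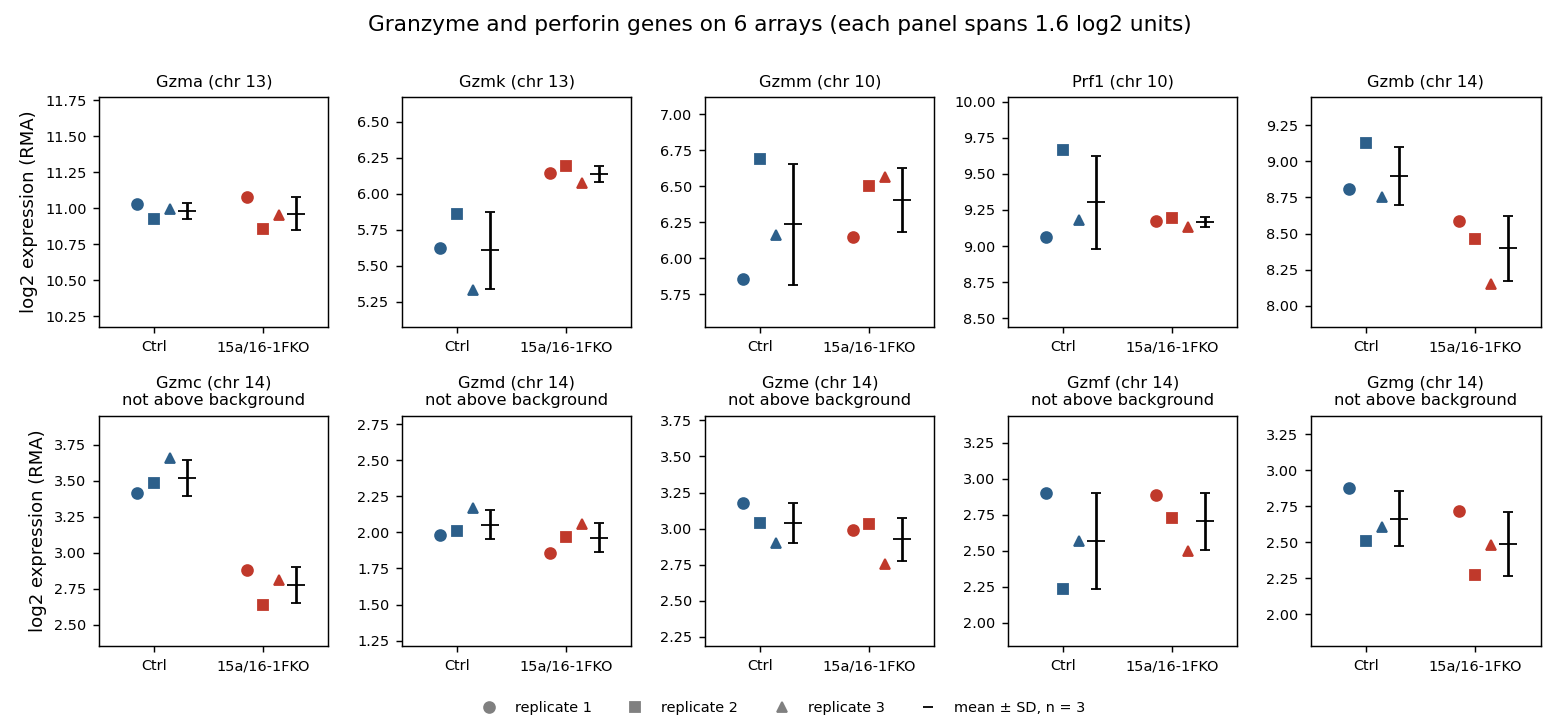
Log2 expression of the 10 genes on each of 6 arrays, labelled RMA because the submitters' processing notes name that method. Ctrl is in blue and 15a/16-1FKO in red, with a symbol shape for each replicate number and the mean ± SD (n = 3) beside them. Every panel spans the same range of log2 units. The arrays of the genotypes are apart for Gzmk, Gzmb and Gzmc and overlap for the other 7 genes.

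Granzyme B, encoded by Gzmb, cleaves after aspartate and activates caspases in the target cell. Its log2 expression was 8.58, 8.46 and 8.15 on knockout replicates 1 to 3 and 8.81, 9.13 and 8.75 on Ctrl replicates 1 to 3. Every knockout array was below every Ctrl array, and 0.17 separated the highest knockout array from the lowest Ctrl array. The means were 8.40 ± 0.23 and 8.90 ± 0.20 (SD, n = 3 each). The log2 difference of -0.50 (SE 0.17, 95% interval -0.88 to -0.12) made the Ctrl level 1.41-fold higher. It did not pass the threshold (limma adjusted p = 0.999, unadjusted p = 0.0149). The exact two-sided permutation p was 0.1, which is as low as a design of 3 against 3 arrays can go. Ctrl replicate 2, the array with the lowest Xist, was also the highest for Gzmb, and without it the difference was -0.38 (SE 0.18). With the sex-linked transcripts as a covariate, it was -0.50 (SE 0.15).

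The 150 bases before the start of Gzmb are shown because it was the 1 granzyme of chromosome 14 above background and they hold all of its motif matches (RefSeq, GRCm38.p6, 5′ to 3′). Capitals mark matches to any of the motifs searched on both strands: CRE-type TGACGTC, AP-1 TGANTCA, RUNX TGTGGT, ETS GGAAGT, T-box GGTGTGA, MYB AACTG or AACGG, and TATA-type TTTAAAA.
Gzmb, chr14:56262335-56262484, minus strand: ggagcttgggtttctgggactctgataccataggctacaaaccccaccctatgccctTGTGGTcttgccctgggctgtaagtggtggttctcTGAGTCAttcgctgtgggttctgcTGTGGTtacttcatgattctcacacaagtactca

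Gzmb had 1 AP-1 match, 58 to 52 bases before the start, and 2 RUNX matches, at 93 to 88 and at 34 to 29. No other of the 10 genes had an AP-1 match in the 250 bases searched, which 6.75% of 32851 RefSeq promoter windows of that length did hold. RUNX letters were found in 14% of all windows and in 9 of the 10 genes, all but Gzmk, where Gzmm was read at the first of its 2 listed starts. No MYB letters lay in the window of Gzmb.

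Granzyme K, a protease of tryptase type, is known in human from the less mature CD56-bright NK cells and from memory CD8 T cells. Gzmk was at 6.15, 6.19 and 6.08 on knockout replicates 1 to 3 and at 5.62, 5.86 and 5.33 on Ctrl replicates 1 to 3. All 3 knockout arrays lay within 0.11 of each other and above every Ctrl array, while the Ctrl arrays spanned 0.53. The means were 6.14 ± 0.06 and 5.61 ± 0.26 (SD, n = 3 each), a log2 difference of 0.53 (SE 0.16, 95% interval 0.17 to 0.89) that made the knockout level 1.45-fold higher. The adjusted p was 0.999 (limma, unadjusted p = 0.00843), and the exact two-sided permutation p was 0.1. The difference was 0.66 (SE 0.16) without Ctrl replicate 2 and 0.40 (SE 0.16) without Ctrl replicate 3.

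The window of Gzmk is shown as that of the gene whose difference ran opposite to Gzmb, with the same motifs in capitals.
Gzmk, chr13:113180966-113181115, minus strand: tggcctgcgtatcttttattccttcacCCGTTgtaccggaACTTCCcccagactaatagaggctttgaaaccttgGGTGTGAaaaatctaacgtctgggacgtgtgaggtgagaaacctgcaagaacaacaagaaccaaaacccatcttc

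It held a T-box match 75 to 69 bases before the start, where 3.33% of all windows had one. Of the other members, Gzmm had T-box letters 189 to 183 bases before the second of its listed starts and none before the first. T-box letters are those read by T-bet and Eomes, factors that NK cells need. Gzmk also held AACGG letters (as their reverse complement, 123 to 119) and, further upstream, AACTG at 177 to 173. AACGG letters were in 14.5% of all windows and in 2 of the members, Gzmk and Gzmd. AACTG letters were in 39.1% of all windows and in 4 of the members, Prf1, Gzmm, Gzmk and Gzmc. Whether any of these letters is bound in these cells was not tested.

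Granzyme A, a tryptase that is the other granzyme made in quantity by NK cells, did not separate the genotypes. Gzma was at 11.08, 10.86 and 10.96 on the knockout arrays and at 11.03, 10.92 and 11.00 on the Ctrl arrays. The values of the genotypes interleaved, with a log2 difference of -0.02 (SE 0.13, 95% interval -0.32 to 0.28, limma adjusted p = 0.999). Its SD within a genotype, 0.09, stood at the 5.01 percentile of the 10892 genes above background, whose median was 0.22.

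Perforin, encoded by Prf1, forms the pore through which granzymes enter. Prf1 was at 9.18, 9.19 and 9.13 on the knockout arrays and at 9.06, 9.67 and 9.18 on the Ctrl arrays. The knockout arrays spanned 0.07 and the Ctrl arrays 0.61, with Ctrl replicate 2 far above the other 2. The log2 difference of -0.14 (SE 0.17, 95% interval -0.53 to 0.25) turned to 0.05 (SE 0.15) without that array. The 150 bases before its start are shown because Prf1 is the effector that all granzymes depend on, and the capitals nearest to the start are TATA-type letters in both orientations.
Prf1, chr10:61297686-61297835, plus strand: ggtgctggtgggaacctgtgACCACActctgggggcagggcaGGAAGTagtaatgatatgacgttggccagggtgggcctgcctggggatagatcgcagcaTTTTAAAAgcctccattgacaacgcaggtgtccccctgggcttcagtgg

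ETS letters, 108 to 103 bases before the start of Prf1, were found in 19.7% of all windows and in 7 of the 10 genes. Granzyme M, which cleaves after methionine or leucine, had its gene measured at 6.15, 6.50 and 6.56 on the knockout arrays and at 5.86, 6.69 and 6.16 on the Ctrl arrays. The arrays of the genotypes overlapped for Gzmm, with a log2 difference of 0.17 (SE 0.22, 95% interval -0.32 to 0.65). It was 0.39 (SE 0.19) without Ctrl replicate 2. Of the 5 genes above background, Ctrl replicate 2 was the highest Ctrl array for 4, Gzmb, Gzmk, Gzmm and Prf1, and the lowest for Gzma. What part the make-up of that array has in these values was not tested.

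**Figure D2:**
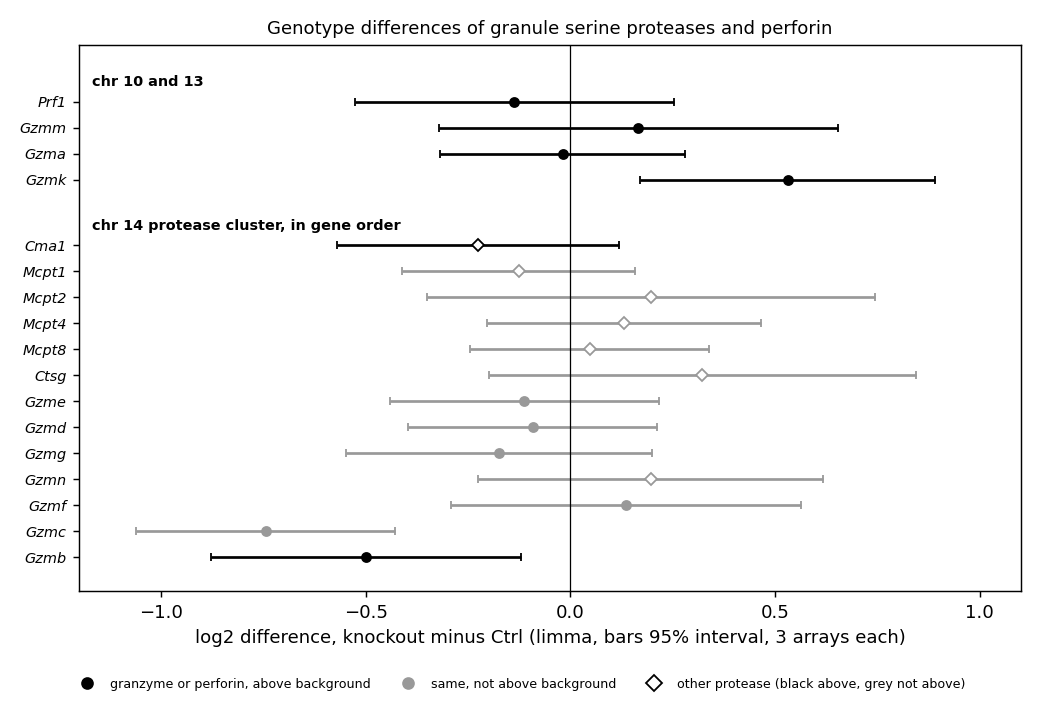
Log2 differences (knockout minus Ctrl) with 95% intervals from limma (3 arrays each) for the 10 genes and for the other measured proteases of the chromosome 14 cluster in gene order. Filled circles are granzymes and perforin, open diamonds the other proteases, and grey marks genes not above background. The intervals of Gzmk, Gzmc and Gzmb leave out 0, and no gene shown passed the adjusted threshold.

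The granzymes of chromosome 14 other than Gzmb lay under the background level. Granzyme C, a chymotrypsin-like relative of granzyme B, is known in mouse from activated T cells and from type 1 innate lymphoid cells. Gzmc read 2.88, 2.64 and 2.81 on the knockout arrays and 3.42, 3.49 and 3.66 on the Ctrl arrays. The genotypes were 0.54 apart at their nearest arrays, the widest gap among the 10 genes, although all 6 values lay under the background level. The log2 difference was -0.74 (SE 0.14, 95% interval -1.06 to -0.43, limma adjusted p = 0.842, unadjusted p = 0.000423). As both means lay under background, no fold is given.

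Gzmd, Gzme, Gzmf and Gzmg, close relatives of Gzmc found in rodents, did not separate the genotypes. Gzmd lay between 1.86 and 2.06 in the knockout and between 1.98 and 2.17 in Ctrl, with a difference of -0.09 (SE 0.14). Gzme was at 2.99, 3.03 and 2.76 against 3.18, 3.04 and 2.90, a difference of -0.11 (SE 0.15). Gzmg was at 2.72, 2.27 and 2.48 against 2.88, 2.51 and 2.61, a difference of -0.18 (SE 0.17). In all 3 of these genes the genotypes overlapped. Gzmf was at 2.89, 2.73 and 2.50 against 2.90, 2.23 and 2.57, a difference of 0.14 (SE 0.19) that was -0.03 without Ctrl replicate 2. These genes are near copies of each other, so that probes may be shared between them, and the probe sequences were not used here.

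The windows of Gzmc, Gzmd and Gzmf are shown to compare the alike starts of Gzmc, whose arrays did not overlap between genotypes, and of relatives whose arrays did.
Gzmc, chr14:56234658-56234807, minus strand: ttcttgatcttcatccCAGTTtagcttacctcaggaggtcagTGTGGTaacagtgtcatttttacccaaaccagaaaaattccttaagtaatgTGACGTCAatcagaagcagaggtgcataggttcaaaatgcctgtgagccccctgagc
Gzmd, chr14:56132594-56132743, minus strand: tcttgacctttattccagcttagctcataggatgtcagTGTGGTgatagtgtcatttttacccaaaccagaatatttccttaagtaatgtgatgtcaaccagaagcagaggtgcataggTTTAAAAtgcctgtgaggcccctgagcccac
Gzmf, chr14:56211408-56211557, minus strand: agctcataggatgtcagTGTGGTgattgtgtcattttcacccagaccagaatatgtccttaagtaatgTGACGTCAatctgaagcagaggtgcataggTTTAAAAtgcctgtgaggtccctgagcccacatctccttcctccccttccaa

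Among Gzmc, Gzmd, Gzme, Gzmf and Gzmg, the 250 bases before the start were 76.4% to 95.2% identical in 10 pairwise alignments, with Gzmd and Gzme the most alike. The other 35 pairs of members aligned over at most 34 bases, Gzmb with its neighbours included. All 5 held ETS and RUNX matches. Gzmc, Gzmf and Gzmg held CRE-type letters, which 2.78% of all windows held, and Gzmd and Gzme did not. The TATA-type letters, found in 8.10% of windows, were in Gzmd, Gzme, Gzmf and Gzmg and in Prf1, and not in Gzmc.

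**Figure D3:**
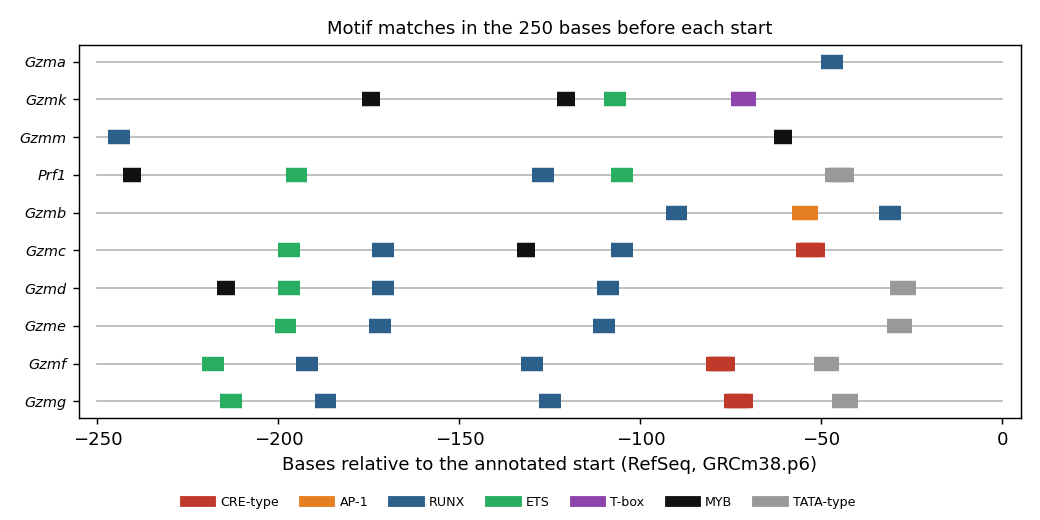
Matches to each motif (colours) in the 250 bases before the annotated start of the 10 genes, with the start at 0 on the x axis in bases. Gzmc to Gzmg share their RUNX and ETS matches at like spacing, Gzmb alone has an AP-1 match, and Gzmm is drawn at the first of its 2 listed starts, where it has no T-box match as Gzmk has.

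The cluster on chromosome 14 also holds mast cell and neutrophil proteases. In gene order it ran from Cma1 to Gzmb over 13 measured genes, of which Gzmb and Cma1 were above background. Cma1, a mast cell chymase, differed by -0.22 (SE 0.15, 95% interval -0.57 to 0.12) and its arrays overlapped. Ctsg, the neutrophil protease cathepsin G, differed by 0.32 (SE 0.23), Gzmn, a granzyme known from mouse testis, by 0.20 (SE 0.19) and Mcpt2 by 0.20 (SE 0.24), all 3 under background. Mcpt4 and Mcpt8, proteases of mast cells and basophils, differed by 0.13 (SE 0.15) and 0.05 (SE 0.13). Mcpt1 differed by -0.13 (SE 0.13) without overlap, at means of 2.34 and 2.47. In the cluster 3 of 13 genes did not overlap between genotypes, Gzmb, Gzmc and Mcpt1, all lower in the knockout. Of all genes 4.65% were lower without overlap and 8.33% did not overlap in either direction. On the whole of chromosome 14, 11.9% of genes did not overlap in either direction. Of 7 measured granule serine proteases encoded elsewhere 2 had positive and 5 negative differences, with Prss34 at 0.19 (SE 0.16), Tpsb2 at -0.17 (SE 0.18) and Prtn3 at -0.20 (SE 0.23). Tpsb2 and Prtn3 were under background.

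Genes around the cluster differed in both directions. Of 20 genes, 10 on either side, 9 had positive and 11 negative differences, between -0.25 and 0.32, and none passed the threshold. Those with the smallest p were Cenpj, a centriole protein, at 0.32 (SE 0.14), and Adcy4, an adenylyl cyclase, at -0.25 (SE 0.14). Gzmb was the 49th measured gene from Mir15a. The 47 genes between Gzmb and Mir16-1 had a median difference of 0.03 (26 above and 21 below 0), none of them past the threshold by limma, and 6 were higher and 2 lower without overlap. These 8 are 17.0% of the 47, beside 11.9% of the 698 genes of chromosome 14 and 8.33% of all genes. Of the 6 granzymes of chromosome 14, 5 had a negative difference (median -0.14), and of the 4 other members 2 did (median 0.07). A single member of the first group was above background, and the difference between these groups was not tested.

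**Figure D4:**
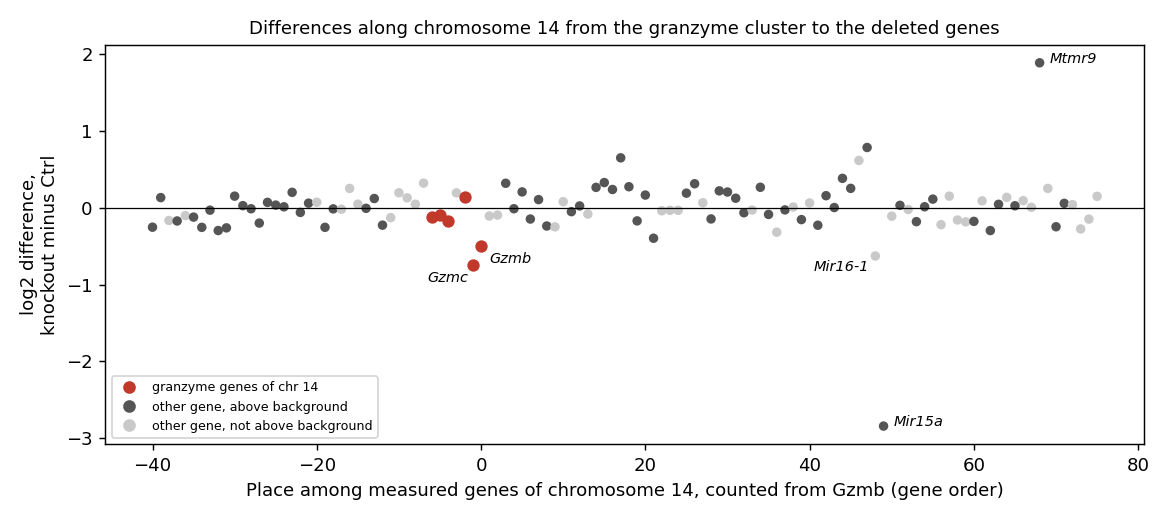
Log2 difference (knockout minus Ctrl) of each measured gene of chromosome 14 against its place in gene order, counted from Gzmb at 0. Red points are the granzymes, dark and light grey points the other genes above and not above background. Gzmb and Gzmc lie at -0.50 and -0.74 beside 20 flanking genes between -0.25 and 0.32, and Mir15a, 49 places away, at -2.84.

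No other gene of the granule pathway passed the threshold. Of 26 measured genes for granzyme activation, storage and exocytosis, 0 were called in either direction (limma adjusted p, all at 0.999 or above), 9 had positive and 17 negative differences, and the median was -0.04 beside -0.01 over all genes. At an unadjusted limma p under 0.05 the count was also 0, beside 3.47% of all genes. Ctsc, the protease that activates granzymes by removing a dipeptide, differed by -0.07 (SE 0.15). Srgn, the proteoglycan core on which granzymes are stored, differed by -0.11 (SE 0.17) and Cst7, an inhibitor of Ctsc, by -0.06 (SE 0.14). The smallest p-values were those of Ctsb, a lysosomal cathepsin of chromosome 14, at -0.30 (SE 0.15), and Lyst, the lysosomal trafficking regulator, at 0.23 (SE 0.15). Ctsl, another cathepsin, differed by -0.27 (SE 0.23) and was under background. The granule membrane protein gene Lamp1 differed by 0.17 (SE 0.21) and the adaptor subunit gene Ap3b1 by -0.28 (SE 0.21). The SNARE protein gene Snap23, at -0.16 (SE 0.13), was the 1 of 26 whose arrays did not overlap, beside 8.33% of all genes. Unc13d, which primes granules for fusion, differed by 0.09 (SE 0.14), Rab27a, which docks them, by -0.08 (SE 0.27) and the syntaxin gene Stx11 by -0.02 (SE 0.15).

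Inhibitors and substrates of granzymes also stayed short of the threshold. Serpinb9, which blocks granzyme B in the killer cell itself, differed by 0.10 (SE 0.13), and its relatives Serpinb6b by -0.25 (SE 0.17), Serpinb6a by 0.15 (SE 0.17) and the dim Serpinb1a by 0.23 (SE 0.20). Of 5 measured inhibitors 3 had positive differences, and of 9 measured substrates 2 did, with Bid at -0.10 (SE 0.15) and the pore-forming Gsdmd at -0.29 (SE 0.16). The DNA repair genes Apex1 and Parp1 both differed by -0.12 (SE 0.15). Among 19 measured transcription factors that act on granzyme or perforin genes or on NK maturation, 10 lay above and 9 below 0, with a median of 0.01. Eomes differed by 0.20 (SE 0.16), Tbx21 by -0.03 (SE 0.18), Runx3 by -0.07 (SE 0.13) and Irf8 by -0.36 (SE 0.19). Myb was higher in all 3 knockout arrays, at 7.38, 7.32 and 7.28 against 7.20, 7.08 and 7.05, a difference of 0.22 (SE 0.13) that did not pass (limma adjusted p = 0.999). Of the 19 factors 2 did not overlap between genotypes, Myb and 1 that was lower, beside 8.33% of all genes.

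**Figure D5:**
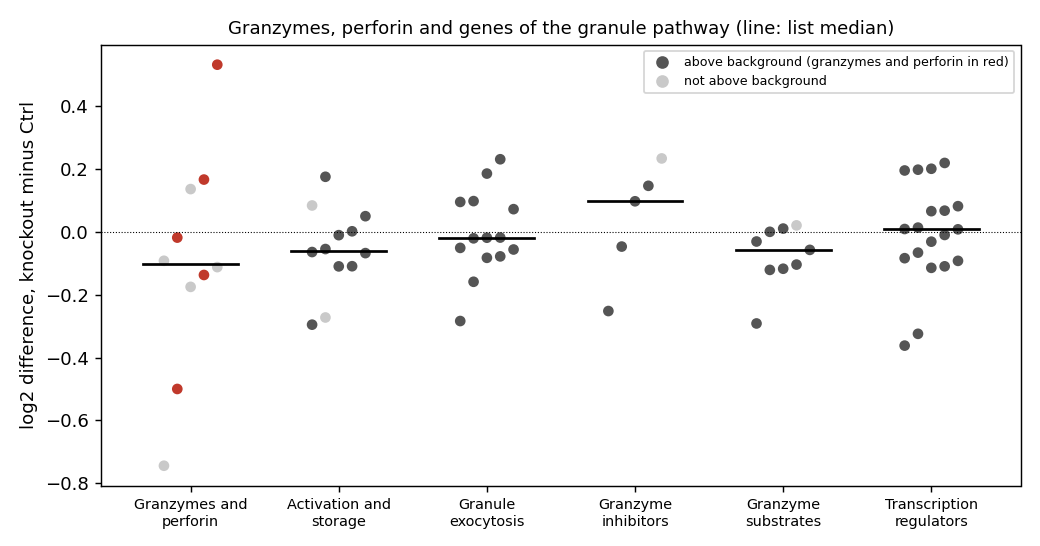
Log2 difference (knockout minus Ctrl) of every measured gene in 6 lists, 1 point per gene, with the list median as a line. Gzmk at 0.53, Gzmb at -0.50 and Gzmc at -0.74 lie outside the range of -0.36 to 0.23 that holds every gene of the other 5 lists.

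Markers of the sorted cells and of other cells were read beside these values, and no marker passed the threshold. Of 10 NK cell markers 9 had positive differences, with Eomes as above, Il2rb at 0.14 (SE 0.13) and Cd244a at 0.10 (SE 0.13), and all overlapped between genotypes. Of 9 markers of mast cells and basophils, which carry proteases of the same cluster, 1 lay above background (Prss34). Their summed log2 level was 26.7 to 28.3 in the knockout and 26.1 to 27.9 in Ctrl, a sum made up mostly of genes under background. The list had 6 positive and 3 negative differences. Among the former were Hdc at 0.20 (SE 0.14), without overlap, and Fcer1a at 0.27 (SE 0.18), with overlap, both under background. Hdc was the 1 of these 9 without overlap, beside 8.33% of all genes.

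Of 10 T cell markers 5 lay above background, Cd3e, Cd3d, Cd3g, Cd28 and Lef1, although the cells were sorted as CD3-, while Cd4 and Cd8a did not. The list had 5 positive and 5 negative differences, and its summed level was 53.6 to 56.4 in the knockout and 54.4 to 55.1 in Ctrl. Cd28 was higher in the knockout by 0.43 (SE 0.14), the 1 of 10 without overlap, beside 8.33% of all genes. Cd5 differed by 0.12 (SE 0.14), Cd3e by -0.19 (SE 0.27) and Cd8a by -0.17 (SE 0.14). The 10 markers of type 1 innate lymphoid cells, 7 of them above background, had 6 positive and 4 negative differences and summed to 50.4 to 52.5 in the knockout and 49.6 to 51.6 in Ctrl. Itga1 was higher in the knockout by 0.51 (SE 0.17), the 1 of these 10 without overlap, beside the same 8.33%. Il7r differed by 0.33 (SE 0.22) and Tmem176b by -0.18 (SE 0.16).

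Neutrophil markers, 6 of 9 above background, summed to 39.6 to 45.2 in the knockout and 39.2 to 42.7 in Ctrl, with 5 positive and 4 negative differences. S100a8 differed by 0.77 (SE 0.32), Ngp by 0.52 (SE 0.46) and the dim Retnlg by 0.28 (SE 0.15), all 3 with overlap. Of 6 B cell markers 2 lay above background and 5 differences were positive, with Cd79a at -0.62 (SE 0.47), Cd79b at 0.14 (SE 0.27) and Blk at 0.09 (SE 0.19). Cd79a and Blk were under background. Of 9 markers of macrophages, monocytes and dendritic cells 3 lay above background and 5 differences were positive, with Siglech at -0.17 (SE 0.13), Flt3 at -0.23 (SE 0.20) and Itgax at 0.20 (SE 0.19). Siglech and Flt3 were under background, and Siglech was the 1 of these 9 without overlap, beside 8.33% of all genes. The summed levels of both lists overlapped between genotypes. The part of other cells in the granzyme values was not tested.

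The genes whose pattern over the 6 arrays was most like that of Gzmb, by the root mean square difference of mean-centred log2 values among 10891 other genes above background, were Grn (0.09), Klhl11 (0.09) and Bin3 (0.10). Grn was at 5.95, 5.91 and 5.77 in the knockout and at 6.22, 6.69 and 6.31 in Ctrl. For Gzmk they were Sec23a (0.07), Dele1 (0.10) and A530088E08Rik (0.10). Sec23a was at 5.74, 5.78 and 5.53 in the knockout and at 5.18, 5.44 and 5.03 in Ctrl. None of the 6 is a granule gene of the lists, and with 6 arrays a likeness of this size describes these arrays only.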

How the data were processed

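Each sample, 3 of 15a/16-1FKO and 3 of Ctrl, was measured on an Affymetrix array. The values deposited by the authors are on the log2 scale, for 35556 probe sets. RMA and Partek 6.6 are named in the submitters' processing notes with no role. RMA subtracts background, quantile-normalizes and summarises probes, and compresses differences of dim probe sets. No source used here names a genome build, and arrays carry no read depth, so that their number limits the precision.

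Gene symbols came from the platform annotation at GEO (21789 with 1 symbol, 1621 with several, 12146 not listed), and a gene was read from its probe set of highest mean. No filter on dim genes was applied. Genotypes were compared in R 4.3.3 by limma 3.58.1 with genotype as the only term (eBayes, two-sided tests, Benjamini-Hochberg over 19938 genes). The fit was tested on simulated data. Promoter windows from RefSeq (GRCm38.p6) were aligned with Biopython 1.88. The named genes are the 10 members, in each other list the 3 genes of smallest p, the protease cluster, the 2 flanking genes of smallest p, 3 genes alike to Gzmb and to Gzmk, and the genes of the title. Further genes of those lists were picked for their known function with their values in view. The members and lists were chosen with earlier results of these data known. The alternatives tried are named in the closing section.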

Additional observations from a re-analysis of the deposited data

How the results depend on the processing

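No granzyme, perforin or granule pathway gene passed the threshold under any of the 15 alternatives: array medians set equal, quantile normalization repeated, dim genes left out by the median level, a replicate block, weights per array, a robust prior with a trend, all probe sets with 1 symbol, the whole table of probe sets, each array left out, and a covariate for sex-linked transcripts, the last chosen after seeing the data. The 5 dim granzymes had no value under the filter on level. The level filter, replicate block, robust prior and both wider choices of probe sets cannot change a difference, only its SE or adjusted p. Of 145 differences of the 10 genes, 140 kept their direction, those under these settings by construction. The 5 that reversed came from leaving out 1 array, with ranges of -0.077 to 0.036 for Gzma, -0.032 to 0.30 for Gzmf, -0.023 to 0.39 for Gzmm and -0.26 to 0.045 for Prf1, and the cause was not tested. Gzmb ranged from -0.59 to -0.37 and Gzmk from 0.40 to 0.66 with an array left out. Over the 19938 genes 4 were called, 2 to 3 with an array left out, 2 with the sex-linked covariate and 3 with the robust prior. Over all probe sets with 1 symbol 5 were called, and over all 35556 probe sets 0. No gene was called lower, so not Mir15a, without knockout replicate 2 or 3, or without Ctrl replicate 1 or 3. The same held with the sex-linked covariate and over all 35556 probe sets. With the replicate block Gzmb differed by -0.50 (SE 0.15) and Gzmk by 0.53 (SE 0.15), and 3 genes were called. Deviations of same-numbered arrays correlated with r of 0.05, 0.15 and 0.14 across genes, which are not independent replicates. Each array correlated best with its own number, a hint from the data and not from the design, and the numbers were not taken as pairs. For number 1 the lead was small, as knockout replicate 1 had r of 0.048 with Ctrl replicate 1 and 0.042 with Ctrl replicate 2. Knockout replicate 3 had r of 0.045 with Ctrl replicate 1.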
